A study of Mus musculus with 51 samples.

Results

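The regions described here are distal H3K27ac sites that appeared at only 1 stage of astroglial differentiation and at which no H3K4me1 peak was called at any of the 3 stages. They were chosen by the peak calls themselves. An H3K27ac peak of a stage on chromosomes 1 to 19 was taken as a member if it overlapped, by at least 1 bp, no H3K27ac peak of the other 2 stages and no H3K4me1 peak of any stage, and if its centre lay more than 1 kb from every start site of a coding transcript in mm9. The rule selected 6305 of 77553 H3K27ac peaks in aNPC (8.13%), 2106 of 81348 in eA (2.59%) and 4656 of 90545 in lA (5.14%), which makes 13067 of 249446 peaks in all.

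Mouse embryonic stem cells were differentiated in culture into neural progenitor cells with astroglial potential (aNPC) and from these into early astrocytes (eA, day 1) and late astrocytes (lA, day 5), and H3K27ac and H3K4me1 were mapped by chromatin immunoprecipitation and sequencing (ChIP-seq) in unperturbed cells of each stage. The groups received no siRNA. By the study's methods the aNPC were raised with the growth factors FGF2 and EGF and the astrocytes in a medium with serum, B27 and LIF, so that stage and medium cannot be told apart, and aNPC was the starting point of the course, with no day in its label. The reads of 2 biological replicates were merged before the peaks were called, without an input control, so that each stage and mark has 1 list, no error between cultures can be given, and no test between stages was made. The depth of the merged libraries is unknown here, and the −log10 q and the fold enrichment that the peak caller gave to a peak were read only within its own list. At H3K27ac peaks within 1 kb of coding start sites, 13 of 14 neural progenitor genes and 16 of 20 astrocyte genes were acetylated at each stage, against 1 of 8 microglia and blood cell genes and 3 of 8 oligodendrocyte lineage genes. Neuronal genes had 4, 5 and 2 of 15 acetylated in aNPC, eA and lA, and mesenchymal and vascular genes 3, 5 and 4 of 11. The astrocyte markers Aldh1l1 and Gjb6 had no H3K27ac peak at a start site at any stage, S100b had none in eA and lA, and Aqp4, the astrocytic water channel, had one in lA only.

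H3K27ac, the acetylation of lysine 27 of histone H3, marks active enhancers and promoters. H3K4me1, the monomethylation of lysine 4, is found at enhancers both before they become active, a state known as priming, and while they are active, and it commonly extends on both sides of the nucleosomes that carry H3K27ac. The members are stage-unique distal sites on chromosomes 1 to 19 at which acetylation was called and no overlapping methylation peak was called at any of the 3 stages.

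The sites are shown first by their sequence, in mm9 and on the plus strand, as the 200 bp around the summit of members with the highest −log10 q of their stage whose window touched no untranslated region of the annotation. Capitals mark matches to any of 13 transcription factor motifs that were searched in all members and that are spelled out with their shares below. The aNPC window lay at chr1:174339639-174339838, outside every gene, 33006 bp downstream of the start of Pigm, a mannosyltransferase of GPI anchor synthesis. The eA windows lay at chr7:86680512-86680711, outside every gene, 59249 bp from the start of Rhcg, an ammonia transporter, and at chr5:116870958-116871157, in an intron of Hspb8, a small heat shock protein, 2104 bp from its start. The lA windows lay at chr10:15562215-15562414, outside every gene, with the nearest coding start, that of the neuromedin B receptor Nmbr, 1082089 bp away, and at chr11:53819013-53819212, in an intron of Slc22a4, an organic cation transporter, 22407 bp from its start.
Pigm, aNPC: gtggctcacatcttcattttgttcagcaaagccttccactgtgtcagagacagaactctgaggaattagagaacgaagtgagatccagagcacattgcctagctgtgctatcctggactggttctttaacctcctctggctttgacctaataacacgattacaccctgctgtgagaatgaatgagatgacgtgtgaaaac
Rhcg, eA: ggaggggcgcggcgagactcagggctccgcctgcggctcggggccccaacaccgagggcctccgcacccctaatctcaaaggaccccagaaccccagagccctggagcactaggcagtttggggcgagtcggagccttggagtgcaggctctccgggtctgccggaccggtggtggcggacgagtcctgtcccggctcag
Hspb8, eA: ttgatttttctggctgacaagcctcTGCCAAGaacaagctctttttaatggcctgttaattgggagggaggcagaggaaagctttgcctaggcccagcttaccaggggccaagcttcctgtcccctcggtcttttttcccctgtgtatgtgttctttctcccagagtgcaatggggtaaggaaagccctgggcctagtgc
Nmbr, lA: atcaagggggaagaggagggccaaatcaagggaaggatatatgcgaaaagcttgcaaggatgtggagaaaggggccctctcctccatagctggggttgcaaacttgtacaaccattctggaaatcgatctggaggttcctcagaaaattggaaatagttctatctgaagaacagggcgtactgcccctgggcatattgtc
Slc22a4, lA: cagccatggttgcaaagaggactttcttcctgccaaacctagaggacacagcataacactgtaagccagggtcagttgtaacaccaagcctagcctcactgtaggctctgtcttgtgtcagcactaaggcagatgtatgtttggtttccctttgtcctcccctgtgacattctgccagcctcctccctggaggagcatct
Of these 5 windows, only that of Hspb8 held a match, to the NF1 motif. Their composition ranged widely. The Rhcg window had a GC content of 70.5% and 16 CpG dinucleotides, and the Slc22a4 window had a GC content of 51.5% and no CpG.

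The E-box CAGCTG, bound by basic helix-loop-helix factors, was less frequent in the members than in the stage-unique sites with H3K4me1, as the motif counts show, and the strongest member of each stage that carried it is shown for this reason, a choice made after the values were seen. The aNPC window lay at chr11:5077493-5077692, outside every gene, 25344 bp from the start of Emid1. The eA window lay at chr4:135701311-135701510, within Id3, an inhibitor of basic helix-loop-helix factors and a BMP target, and the lA window at chr2:54420796-54420995, in an intron of the glycosyltransferase gene Galnt13.
Emid1, aNPC: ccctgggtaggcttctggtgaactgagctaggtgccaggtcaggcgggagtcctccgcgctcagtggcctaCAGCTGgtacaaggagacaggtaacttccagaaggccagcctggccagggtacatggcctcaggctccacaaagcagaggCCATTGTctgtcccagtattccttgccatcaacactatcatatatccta
Id3, eA: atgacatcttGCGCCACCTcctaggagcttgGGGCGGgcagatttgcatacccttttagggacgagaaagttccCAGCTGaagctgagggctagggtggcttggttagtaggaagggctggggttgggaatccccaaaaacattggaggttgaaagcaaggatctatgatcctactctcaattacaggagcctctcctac
Galnt13, lA: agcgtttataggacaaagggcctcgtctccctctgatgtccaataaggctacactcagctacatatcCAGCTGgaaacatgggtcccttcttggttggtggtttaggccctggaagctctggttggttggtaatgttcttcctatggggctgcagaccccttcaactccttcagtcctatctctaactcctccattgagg
Besides the E-box, the Emid1 window held a match to the SOX motif, and the Id3 window, with −log10 q = 19.4, held matches to the CTCF core and the GC box.

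The members were weak peaks of their lists. In aNPC their median −log10 q was 4.89 and their median width 230 bp, against 6.33 and 311 bp for the distal aNPC-unique peaks that overlapped an H3K4me1 peak of at least 1 stage (n = 20594), and 11.5 and 508 bp for the distal aNPC peaks shared with another stage (n = 35117). In eA the median −log10 q of the members was 4.35 and their width 164 bp, against 5.00 and 199 bp for the eA-unique peaks with H3K4me1 (n = 10698). In lA the values were 4.70 and 240 bp, against 5.33 and 289 bp (n = 19750). At each stage the order was the same, with the members lowest and the shared peaks highest. Of the members, 3071 aNPC (48.7%), 841 eA (39.9%) and 2085 lA sites (44.8%) had a −log10 q of 5 or more. These values come from the calls that chose the members and are given as a description without a test.

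The members made up 23.4% of all distal aNPC-unique H3K27ac peaks (95% Wilson interval, 22.9 to 23.9%), 16.4% of the eA-unique peaks (15.8 to 17.1%) and 19.1% of the lA-unique peaks (18.6 to 19.6%). The intervals, here and below, cover counting error over peaks only. They and the tests below take each peak as independent of its neighbours. Of the members, 27.7% in aNPC, 11.8% in eA and 17.5% in lA had another of their stage within 10 kb. The intervals may therefore be too narrow and the p-values too low. The share lacking H3K4me1 fell with the strength of the peak, a description from the calls that the rule used. A wider peak has more bases that can overlap H3K4me1, and the part of width was not tested. In aNPC, 34.6% of the peaks with a −log10 q under 3 lacked H3K4me1, against 22.4% of those from 5 to 10 and 8.96% of those of 20 or more (168 of 1875). In lA the share went from 26.7% to 17.1% and to 2.50% (4 of 160) over the same classes. In eA it went from 22.5% to 13.4%, and the 9 of 79 peaks of 20 or more (11.4%, 6.11 to 20.3%) did not set that class apart from the class from 10 to 20 (12.1%).

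**Figure D1:**
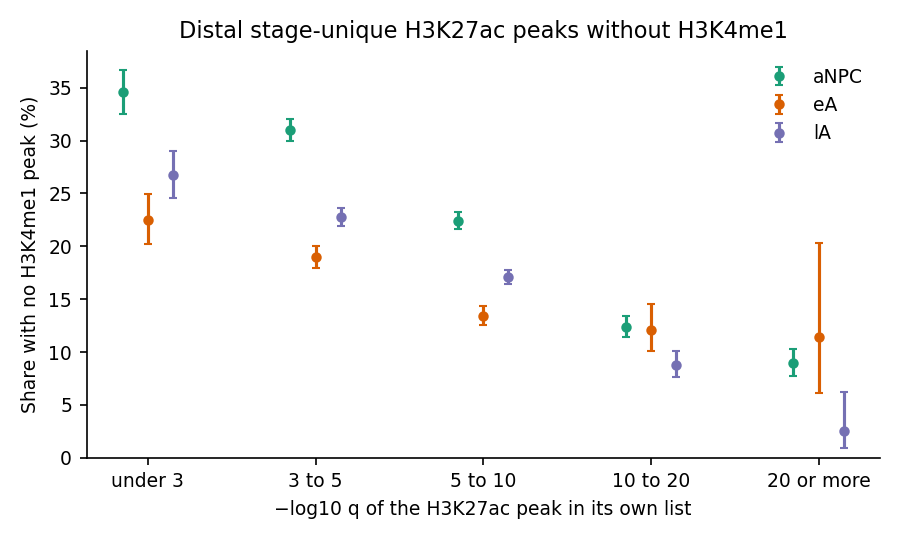
Share (%) of distal stage-unique H3K27ac peaks that overlap no H3K4me1 peak of any stage (y axis) by the −log10 q of the H3K27ac peak in its own list (x axis, 5 classes), with 95% Wilson intervals, for aNPC, eA and lA. The share was highest among the weakest peaks of each list, 34.6% in aNPC, 22.5% in eA and 26.7% in lA.

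Lacking an overlap did not mean lacking H3K4me1 nearby. The distances come from the calls that the rule used and are given as a description, with no other set of sites beside them. In aNPC, 3174 of 6305 members (50.3%) lay within 500 bp of an H3K4me1 peak of some stage and 3900 (61.9%) within 1 kb, with a median distance of 494 bp between the edges. In eA the shares were 47.2% and 56.9%, with a median of 580 bp. In lA they were 67.1% and 81.5%, with a median of 306 bp. Only 518 aNPC members (8.22%), 217 eA members (10.3%) and 125 lA members (2.68%) lay more than 10 kb from every H3K4me1 peak. With the other peaks widened by 1 kb on both sides, 2354, 841 and 807 members were left.

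The nearby H3K4me1 was mostly not restricted to a stage. An H3K4me1 peak lay within 1 kb at all 3 stages for 2196 aNPC members (34.8%), 632 eA members (30.0%) and 1722 lA members (37.0%). It lay within 1 kb at the member's own stage alone for 445 (7.06%), 93 (4.42%) and 689 (14.8%), and at another stage but not its own for 495 (7.85%), 215 (10.2%) and 284 (6.10%). For lA members the median distance to H3K4me1 was 1785 bp for the aNPC list, 530 bp for the eA list and 402 bp for the lA list. For aNPC members it was 744 bp to the aNPC list and 1676 bp to the lA list. For eA members it was 2660 bp to the aNPC list, 1283 bp to the eA list and 1244 bp to the lA list. The lists differ in length and in unknown depth, so these distances are set side by side only.

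H3K27ac of other stages was farther away, but its distance is the smallest over 2 lists and that of H3K4me1 the smallest over 3. In each single list of another stage the median was also larger for H3K27ac. From aNPC members to the eA lists it was 11034 bp for H3K27ac, against 995 bp for H3K4me1. H3K27ac of any other stage lay within 1 kb of 1229 aNPC members (19.5%), 767 eA members (36.4%) and 1846 lA members (39.6%), with median distances of 7888, 3647 and 2277 bp. For lA members the nearer list was that of eA (35.2% within 1 kb) rather than that of aNPC (16.3%). Members more than 10 kb from both an H3K4me1 peak of any stage and an H3K27ac peak of another stage were 509 aNPC (8.07%), 202 eA (9.59%) and 117 lA sites (2.51%). The median −log10 q of members beyond 5 kb of H3K4me1 was 4.74 in aNPC, against 4.92 for members within 1 kb. In eA it was 4.04 against 4.53, and in lA it was 5.08 against 4.69. Of the members with a −log10 q of 20 or more, 45 of 168 in aNPC, 1 of 9 in eA and 0 of 4 in lA lay beyond 5 kb, against 1120, 434 and 309 of all members.

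**Figure D2:**
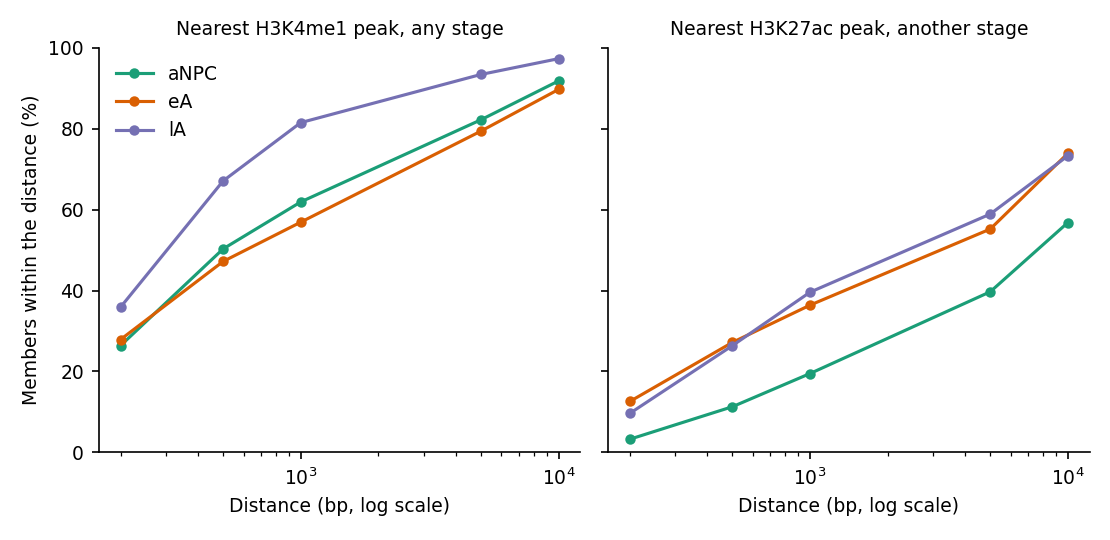
Share (%) of the members of each stage within 200 bp, 500 bp, 1 kb, 5 kb and 10 kb (x axis, log scale) of the nearest H3K4me1 peak of any stage (left) and of the nearest H3K27ac peak of another stage (right). Within 1 kb, 81.5% of the lA members had an H3K4me1 peak, against 61.9% in aNPC and 56.9% in eA.

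Just inside the rule, 429 aNPC, 186 eA and 441 lA members lay up to 50 bp from an H3K4me1 peak, with median −log10 q of 4.86, 4.30 and 4.60. Just outside it, 506, 317 and 569 distal stage-unique peaks overlapped H3K4me1 by at most 50 bp, with 4.56, 4.51 and 4.46. At the limit to start sites, 10, 9 and 7 members had their centre up to 1100 bp from a coding start, and 11, 13 and 9 otherwise equal peaks had it between 900 bp and 1 kb.

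The place of the members in the genome was not used by the rule beyond the 1 kb around coding start sites, and it was compared at each stage with the distal stage-unique peaks that overlap H3K4me1 by Fisher's exact test (two-sided), adjusted by Benjamini-Hochberg over 15 tests. In aNPC, 3327 of 6305 members (52.8%) had their centre outside every annotated gene, against 47.7% of the peaks with H3K4me1 (odds ratio 1.22, 95% interval 1.16 to 1.29, adjusted exact p = 7.12e-12). In lA, 2595 of 4656 members (55.7%) lay outside genes, against 49.2% (odds ratio 1.30, 1.22 to 1.38, adjusted exact p = 6.80e-15). In eA the direction was the opposite, with 571 of 2106 members (27.1%) outside genes against 37.3% (odds ratio 0.625, 0.564 to 0.693, adjusted exact p = 9.96e-19). The members stood below the peaks with H3K4me1 on 19 of 19 chromosomes in eA and above them on 14 in aNPC and 18 in lA. The distal peaks shared between stages lay outside genes in 43.9%, 43.4% and 44.3% of cases.

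The distance to coding start sites followed the same split. In aNPC, 55.4% of the members lay more than 50 kb from every coding start site, against 48.6% of the peaks with H3K4me1 (odds ratio 1.31, 1.24 to 1.39, adjusted exact p = 8.93e-20), and in lA 52.4% against 46.2% (1.28, 1.20 to 1.36, adjusted exact p = 1.39e-13). In eA 30.4% did, against 37.6% (0.725, 0.656 to 0.802, adjusted exact p = 4.82e-10). The median distance of the members at the 3 stages was 61490, 24518 and 54821 bp. The peaks are not independent cultures, and the p-values measure only how peaks of 1 merged list divide. Neighbouring peaks were also taken as independent of one another.

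Most eA members lay inside genes, above all in introns. Introns of coding genes held 1305 eA members (62.0%), against 56.0% of the eA-unique peaks with H3K4me1 and 50.9% of the shared eA peaks. In aNPC they held 42.5% of the members and 47.5% of the peaks with H3K4me1, and in lA 40.7% and 46.5%. Coding exons held 167 eA members (7.93%), against 4.38% of the eA-unique peaks with H3K4me1 (odds ratio 1.88, 1.56 to 2.26, adjusted exact p = 8.17e-10). In lA the exon share was 1.35% against 1.90% (0.709, 0.542 to 0.927, adjusted exact p = 0.0234), a call lost with the other peaks widened by 1 kb (0.733, adjusted exact p = 0.682). In aNPC it was 2.24% against 2.39% (0.933, 0.772 to 1.13, adjusted exact p = 0.507). The exon share was added after the data had been seen, as was the next measure, and both were adjusted together over 6 tests by Fisher's exact test.

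The genes that held eA members were mostly genes with an acetylated promoter. Of 1131 eA members inside the gene of their nearest coding start site, 1043 (92.2%) lay in a gene with an eA H3K27ac peak within 1 kb of a coding start, against 87.1% of the peaks with H3K4me1 (odds ratio 1.76, 1.39 to 2.22, adjusted exact p = 1.92e-06). The call was lost with the other peaks widened by 1 kb (odds ratio 1.46, adjusted exact p = 0.113). In aNPC the shares were 78.8% and 79.6% (0.957, 0.854 to 1.07), and in lA 75.1% and 76.0% (0.949, 0.836 to 1.08), both with an adjusted exact p = 0.507. Gene length was counted once per peak, so that a gene with several peaks counted several times. The median so counted was 85945 bp for the genes of the eA members, against 115070 bp for those of the eA-unique peaks with H3K4me1. Counted in the same way, the genes of the members were the longer ones in aNPC and lA (178893 against 155063 bp and 155544 against 150526 bp). The part of transcription through these genes in the eA members was not tested.

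Start sites of noncoding transcripts within 1 kb were found for 61 aNPC members (0.967%), 44 eA members (2.09%) and 41 lA members (0.881%). The eA share was above the 1.35% of the peaks with H3K4me1 (odds ratio 1.56, 1.11 to 2.20, adjusted exact p = 0.0193), a call that was lost when peaks with a −log10 q under 5 were left out (2.50%, odds ratio 1.62, adjusted exact p = 0.0901). It was also lost with the other peaks widened by 1 kb (odds ratio 1.57, adjusted exact p = 0.162). In aNPC (adjusted exact p = 0.515) and lA (adjusted exact p = 0.492) the shares did not pass the test. By type, the eA members were at 9 lincRNA, 11 processed transcript and 9 pseudogene starts and 15 starts of small RNAs.

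**Figure D3:**
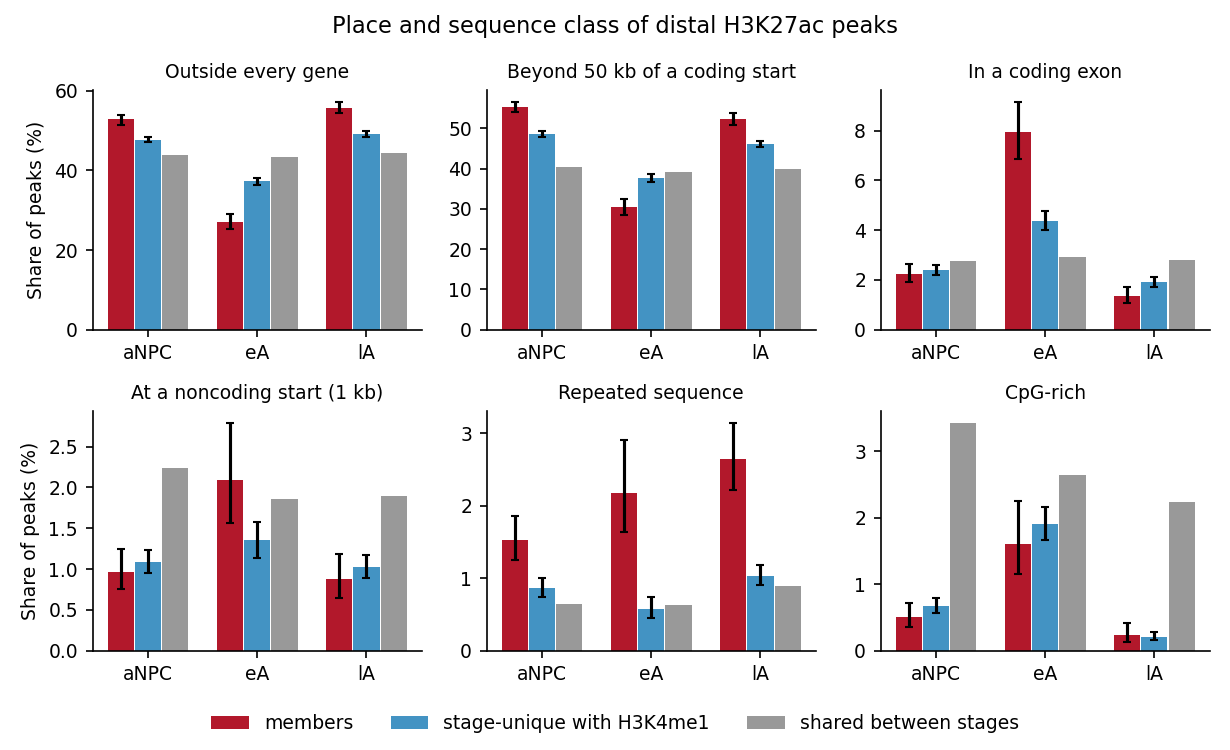
Share (%) of the members, of the distal stage-unique peaks with H3K4me1 and of the distal peaks shared between stages in 6 classes of place and sequence, by stage, with 95% Wilson intervals on the first 2 sets. In eA the members stood below the other sets outside genes (27.1%) and above them in coding exons (7.93%), while in aNPC and lA more than 50% of them were outside genes.

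CpG-rich windows, with a GC content of at least 50% and an observed/expected CpG ratio of at least 0.6 in the 200 bp around the summit, are typical of promoters, and they were rare among the members. They made up 32 aNPC members (0.508%), 34 eA members (1.61%) and 11 lA members (0.236%), against 0.670%, 1.90% and 0.213% of the peaks with H3K4me1, and none of the 3 differences passed Fisher's exact test (adjusted exact p = 0.236, 0.492 and 0.727). The aNPC share, with an odds ratio of 0.756, was lower in 3 alternatives, with the other peaks widened by 1 kb (0.344, adjusted exact p = 0.0257), with overlap by the summit (0.639, 0.0115) and with windows of 500 bp (0.445, 0.0266). Of 200 bp windows taken every 10 kb along the genome, 0.984% were CpG-rich. The median GC content of the members was 46.0% at every stage, against 47.0% for the peaks with H3K4me1 and 42.0% for the genome windows.

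Repeated sequence was more frequent in the members. Windows in which at least 50% of the 16-base words occurred at 20 or more places in the genome made up 96 aNPC members (1.52% against 0.859% of the peaks with H3K4me1, odds ratio 1.78, 1.39 to 2.29, adjusted exact p = 1.76e-05). They made up 46 eA members (2.18% against 0.580%, odds ratio 3.83, 2.61 to 5.63, adjusted exact p = 2.23e-10) and 123 lA members (2.64% against 1.03%, odds ratio 2.60, 2.07 to 3.26, adjusted exact p = 1.69e-14). All of these shares lay far under the 17.9% of the genome windows, and only uniquely placed reads had been kept in the alignment. With the other peaks widened by 1 kb the odds ratios were 1.24, 1.83 and 1.78 and none passed (adjusted exact p = 0.365, 0.162 and 0.0758).

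Motif matches were counted as exact matches on either strand in the 200 bp around the summit, for AP-1 (TGANTCA), CRE (TGACGTCA), NF1 (TGCCAAG), RUNX (TGTGGTT), STAT (TTCCNGGAA), SOX (ACAATGG), ETS (CCGGAAG), E-box (CAGCTG), NRF1 (GCATGCGC), CTCF (AGGNGGCGC), the GC box (GGGCGG), the Lhx homeobox (TAATTAG) and forkhead factors (TGTTTAC). None of these patterns contains another, matches of different motifs may overlap, and p-values from Fisher's exact test were adjusted over 39 tests. Of 13 motifs, 3 (aNPC), 3 (eA) and 2 (lA) were less frequent in the members than in the peaks with H3K4me1, and none was more frequent at an adjusted p under 0.05 at any stage. At an unadjusted p under 0.05 the counts were 3, 4 and 2 motifs.

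The E-box was found in 655 aNPC members (10.4% against 12.9%, odds ratio 0.781, 0.714 to 0.855, adjusted exact p = 2.17e-06), 214 eA members (10.2% against 13.5%, 0.725, 0.623 to 0.844, adjusted exact p = 3.03e-04) and 487 lA members (10.5% against 11.9%, 0.869, 0.783 to 0.963, adjusted exact p = 0.0367). The lA call was lost in 4 alternatives, without peaks of a −log10 q under 5 (adjusted exact p = 0.733), with the other peaks widened (0.533), with start sites of every biotype (0.0577) and without repeated sequence (0.0766), with odds ratios of 0.911, 0.820, 0.875 and 0.879. The share was lower in the members on 18, 17 and 16 of 19 chromosomes, and it still exceeded the 7.41% of the genome windows. The NF1 motif, whose factors Nfia, Nfib and Nfix act in gliogenesis, was found in 3.55% of the aNPC members against 4.67% (odds ratio 0.753, 0.649 to 0.873, adjusted exact p = 0.00127). In eA it was found in 3.94% against 5.79% (0.668, 0.529 to 0.844, adjusted exact p = 0.00387) and in lA in 3.29% against 4.67% (0.694, 0.583 to 0.826, adjusted exact p = 3.03e-04), near the 3.15% of the genome windows. The SOX motif was lower in the eA members (2.18% against 3.38%, adjusted exact p = 0.0192), and the GC box in the aNPC members (1.78% against 2.51%, adjusted exact p = 0.00387).

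The other motifs did not pass. The AP-1 motif, also the site of Atf3, was found in 6.76%, 6.22% and 6.31% of the members, against 6.72%, 7.66% and 6.99% of the peaks with H3K4me1, with adjusted exact p = 0.958, 0.0884 and 0.313. The STAT motif was found in 44 aNPC, 8 eA and 33 lA members (0.698%, 0.380% and 0.709%), against 0.656%, 0.720% and 0.765% of the peaks with H3K4me1 and 0.478% of the genome windows. The RUNX motif was found in 4.36%, 3.85% and 4.34%, against 4.48%, 4.15% and 4.41% and against 4.68% of the windows. Without peaks of a −log10 q under 5, and so with fewer peaks tested, the counts of motifs under 0.05 were 1, 0 and 1, and the odds ratios of the lost calls were 0.743 (E-box, eA), 0.911 (E-box, lA), 0.799 (NF1, aNPC), 0.808 (NF1, eA), 0.581 (SOX, eA) and 0.851 (GC box, aNPC). With the other peaks widened by 1 kb no motif passed at any stage. The odds ratios of the E-box were then 0.886, 0.801 and 0.820 and those of the NF1 motif 0.924, 0.703 and 0.761 in aNPC, eA and lA, that of the SOX motif in eA was 0.475 and that of the GC box in aNPC 0.834, with fewer peaks tested.

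**Figure D4:**
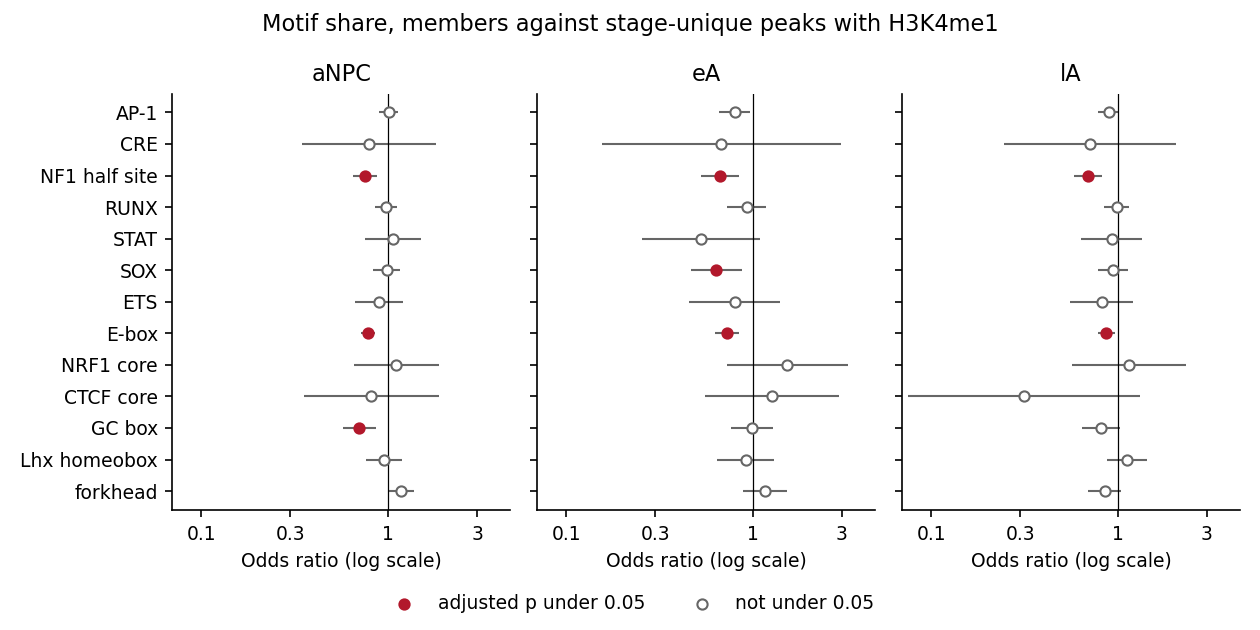
Odds ratio (x axis, log scale, with 95% intervals) of a motif match in the members against the distal stage-unique peaks with H3K4me1, for 13 motifs (y axis) in aNPC, eA and lA; filled points have an adjusted p under 0.05 by Fisher's exact test. The E-box (0.781, 0.725 and 0.869) and the NF1 motif (0.753, 0.668 and 0.694) lay below 1 at each stage.

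The strongest aNPC members stood high among the aNPC-unique peaks but not in the whole list. The member near Pigm had a −log10 q of 94.0 and a fold of 15.0, and it ranked 37 among distal aNPC-unique peaks and 5843 in the list, with an aNPC H3K4me1 peak 146 bp away. The Arhgap24 member (−log10 q = 88.1) had H3K4me1 peaks of aNPC, eA and lA at 199, 185 and 197 bp. A pair of adjacent members lay 11421 and 12080 bp downstream of Sh2d6, with −log10 q of 83.9 and 69.3. The member 7566 bp upstream of Pds5a, a regulator of cohesin, had a −log10 q of 74.2, was 1801 bp wide and lay 5181 bp from the nearest H3K4me1 peak, so that it was strong, wide and clear of the mark. Other members of the first 8 lay near Slc25a33, a mitochondrial nucleotide carrier, and in an exon of Arhgap33, with −log10 q of 72.4 and 71.5.

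Except for the Gm15319 member, the strongest eA members named here lay within 755 bp of an H3K4me1 peak. The Rhcg member (−log10 q = 34.7) ended 17 bp from an lA H3K4me1 peak. The Hnrnpa0 member (34.1) lay in an exon of a gene for an RNA-binding protein, 1134 bp from its start, just inside the rule. The Hspb8 member (28.9) was 2104 bp from a start site and the A230051G13Rik member (25.0) 2355 bp. The Npas3 member (21.4), in a gene for a neural basic helix-loop-helix PAS factor, was 145 bp wide with a fold of 2.27. A member 64351 bp upstream of Pax6, the transcription factor of neural progenitors, had a −log10 q of 20.7 and lay in a noncoding gene, 120 bp from an aNPC H3K4me1 peak. The Dnttip2 member (27.8) was 131 bp from an aNPC H3K4me1 peak. The member at Gm15319 (26.1) stood apart, 7129 bp from the nearest H3K4me1 peak. H3K27ac of another stage lay 201, 141, 111, 285 and 315 bp from the Hnrnpa0, Dnttip2, A230051G13Rik, Npas3 and Pax6 members. From the Hspb8, Rhcg and Gm15319 members it lay 969, 2343 and 7234 bp away.

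In lA the first member (−log10 q = 30.2, fold 8.18) was the Nmbr site. Its nearest H3K4me1 peak was 1156 bp away in lA but 136869 bp away in eA and 210338 bp away in aNPC, and the nearest H3K27ac peak of another stage lay 328176 bp away. The Galnt13 member (19.5) had H3K4me1 peaks of lA and eA at 105 and 220 bp and none in aNPC within 130325 bp, and the Vmn2r84 member (19.4), near a vomeronasal receptor gene, had one in lA at 662 bp and none in eA or aNPC within 80730 bp. For these 3 members 33.5%, 38.9% and 70.8% of their 16-base words were repeated ones. The C1qtnf9 member (25.5), 15899 bp upstream of that gene in an intron of another, had a higher repeated share of 77.3%, with H3K4me1 peaks of aNPC, eA and lA at 187, 196 and 162 bp. The Gpr37l1 member (21.6) lay 3490 bp upstream of a gene for a receptor found in astrocytes, 216 bp from an eA H3K4me1 peak, and the Itga7 member (19.5) 1775 bp upstream of an integrin gene. The Slc22a4 (26.8) and Nrg2 (19.6) members lay in introns, the last in a gene for a neuregulin. H3K27ac of another stage lay 68, 116 and 231 bp from the C1qtnf9, Nrg2 and Gpr37l1 members. From the other lA members named here it lay 600 bp or farther away.

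Members were given to the gene of the nearest coding start site if they lay in that gene or within 50 kb of the start, which placed 3683 aNPC (58.4%), 1691 eA (80.3%) and 2743 lA members (58.9%). Of 21281 coding genes, 2353 (11.1%) were given an aNPC member, 1412 (6.64%) an eA member and 2036 (9.57%) an lA member. In aNPC the genes with most members were Zeb1, a zinc finger repressor of epithelial genes, with 14, and the neural adhesion gene Cntn5 and the glutamate receptor gene Grm5 with 13 each. The 14 Zeb1 members lay within the gene, with −log10 q from 2.57 to 9.96 and distances to H3K4me1 from 232 to 8629 bp, among 39 aNPC H3K27ac peaks given to it. Zeb1 had an acetylated promoter in aNPC, and Cntn5 and Grm5 had none.

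In eA Gm15319 and Nckap5 had 8 members each and the neuregulin receptor gene Erbb4 had 6. The 8 Gm15319 members had no H3K4me1-bearing stage-unique peak beside them, and a median of 37.3% of their 16-base words were repeated ones, against 5.95% for the Nckap5 members and 2.43% for the Erbb4 members. In lA 2010111I01Rik and Lrp1b, a receptor gene 2058 kb long, had 8 members each and Ccdc34 had 6, the first by name among genes with 6. All 8 Lrp1b members lay within 452 bp of an H3K4me1 peak.

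The spacing of the members is given as a description, with no other set beside it. In aNPC 1749 members (27.7%) had another aNPC member within 10 kb, in eA 249 (11.8%) and in lA 816 (17.5%). The largest aNPC group held 7 members over 23.6 kb of Zeb1, and the next 6 members over 7.51 kb near Grm3, 41060 bp from any H3K27ac peak of another stage. In eA, 6 members lay over 10.9 kb at Gm15319 and 6 over 19.6 kb near the immunoglobulin segment Ighv1-73, and the 4 members near Smok4a had a median of 80.8% of repeated 16-base words. In lA the largest group held 6 members over 14.2 kb near Gm8300, and 4 members lay over 6.85 kb upstream of Col3a1, a fibrillar collagen gene, 37777 bp from any H3K27ac peak of another stage. By chromosome, the members made up from 19.7% (chromosome 19) to 27.8% (chromosome 18) of the distal aNPC-unique peaks, from 13.1% (chromosome 14) to 20.3% (chromosome 19) of the eA-unique peaks and from 16.1% (chromosome 4) to 24.6% (chromosome 10) of the lA-unique peaks.

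Among astrocyte genes, 4, 4 and 5 of 20 were given members in aNPC, eA and lA, against 10, 11 and 9 that were given a stage-unique peak with H3K4me1. Of all coding genes, 11.1%, 6.64% and 9.57% were given a member. A stage-unique peak with H3K4me1 was given to 5405, 4711 and 5775 genes in all, beside 21281 coding genes. The lA members included 1 in an intron of Aldh1l1, the folate enzyme used as an astrocyte marker (−log10 q = 8.57, 483 bp from H3K4me1), 1 in an intron of the potassium channel gene Kcnj10 (6.91, 321 bp) and 1 in an intron of the glutamate transporter gene Slc1a2 (6.40, 352 bp). Of 2 members given to Aqp4, the stronger lay 49319 bp downstream of its start (5.31). In aNPC, Slc1a2 had a member 42116 bp upstream (8.31), and Nfib, a glial NFI factor, had 5, the strongest in an intron with a −log10 q of 14.6, a width of 923 bp and 9288 bp to the nearest H3K4me1 peak. In eA, Nfia had 3 members, the strongest with 6.17. Both also belong to the list of NFI and RUNX genes, of which 3, 3 and 2 of 8 had members at the 3 stages, beside the same shares of all coding genes. Runx1 (5.00) in aNPC and Nfix (7.38) in lA were the others named in that list.

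Among neural progenitor genes, 1, 6 and 3 of 14 were given members at aNPC, eA and lA, beside 11.1%, 6.64% and 9.57% of all coding genes. Stage-unique peaks with H3K4me1 were given to 10, 4 and 10 of the 14, and to 5405, 4711 and 5775 genes in all. The aNPC gene was Egfr, the growth factor receptor of these cells, whose strongest member (6.03) lay 41211 bp upstream, 13483 bp from H3K4me1 and 13510 bp from H3K27ac of another stage. In eA the strongest members were those of Id3 (19.4) and Sox2, a factor of neural stem cells (18.4), at 2110 and 3647 bp downstream of the start sites. Both had low folds of 2.10 and 1.90, and the Id3 member lay 178 bp from H3K4me1 and the Sox2 member 1574 bp. From an H3K27ac peak of another stage the Id3 member lay 93 bp and the Sox2 member 653 bp away. In lA, Hes1, a Notch target, had a member 31898 bp upstream (10.1) and Prom1 one 42838 bp upstream (5.94). The count of 6 of 14 genes in eA stood beside 6.64% of all coding genes and beside 4 of 14 genes with a stage-unique peak with H3K4me1, and only 2 of the 6 had a member with a −log10 q of 5 or more.

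Genes of other lineages were counted in the same way, beside 11.1%, 6.64% and 9.57% of all coding genes given a member at aNPC, eA and lA. Of 15 neuronal genes, 4 had members at aNPC and 1 at each later stage, with members of the synaptic genes Syt1 (4 members, strongest 8.98) and Snap25 (6.31) in aNPC. Of 8 oligodendrocyte lineage genes, 3 had members in aNPC and none in eA or lA, with Olig1 (15.8, 100 bp from H3K4me1) and Nkx2-2 (6.05) as the strongest. Mesenchymal and vascular genes had members at 1 of 11 genes in aNPC, Cdh5 (14.3), at none in eA, and at 4 in lA, where Col3a1 (4 members, 7.81), the smooth muscle actin gene Acta2 (7.31) and Prrx1 (5.73) passed a −log10 q of 5. The Acta2 member lay in an exon, 7 bp from an H3K4me1 peak and 5 bp from H3K27ac of another stage. Microglia and blood cell genes had 2 of 8 in aNPC, both under 5, and none later. Of 9 pluripotency genes, only Tdgf1 in lA had a member (7.54). Snap25, Nkx2-2 and Cdh5 in aNPC and Col3a1, Prrx1 and Tdgf1 in lA had no H3K27ac peak within 1 kb of their coding start sites. Syt1 and Olig1 in aNPC and Acta2 in lA had one.

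Signalling genes were counted beside the same shares of all coding genes, 11.1%, 6.64% and 9.57% at the 3 stages. In eA, the stage reached after 1 day, Il6st, the gp130 receptor subunit of the LIF and CNTF pathway, had a member in an intron (8.62, 6064 bp from H3K4me1). Il6st had no H3K27ac peak within 1 kb of its own coding start sites at any stage. Of 10 genes of this pathway 2 had members in eA, 2 in lA and none in aNPC. Of 12 BMP and TGF-beta genes, 4 had members in aNPC, with the receptor gene Tgfbr1 (6.71) and Smad3 (6.06) as the strongest, 2 in eA and 1 in lA. The BMP receptor gene Bmpr1b had a member in eA 1390 bp from its nearest start site (7.38, 30 bp from H3K4me1) and 2 in lA (7.06). Of 10 AP-1 and ATF genes, Jun had the only member of aNPC (6.03), 11596 bp upstream, and 1 gene in eA and 3 in lA had members, all under 5. In lists of 8 to 20 genes, 1 gene weighs much, and these counts were not tested.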

How the data were processed

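H3K27ac and H3K4me1 ChIP-seq libraries of aNPC, eA and lA, with 2 biological replicates each, were used. The authors aligned the reads uniquely to mm9 with Bowtie, merged both replicates with SAMtools 0.1.19 and, from the merged alignments, derived 6 lists with MACS2 at default settings and without input. In the deposited lists the score is a whole number that MACS2 derives from the significance of a peak, and it was not used further. The fold in the deposited lists is the enrichment over the local background that the authors' peak caller estimated. The −log10 values used are those the authors deposited for the q-value. The series' other samples, 8 RNA-seq libraries with conflicting labels among them, were not analysed here.

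The members, comparisons and gene lists were chosen with earlier results of these data known. Coordinates were made 1-based, and genes and start sites came from the GENCODE M1 annotation of mm9. The lists were compared with Python 3.11.15, NumPy 2.4.6, SciPy 1.17.1, pandas 2.3.3 and numba 0.67.0, and the plots drawn with matplotlib 3.10.9. The overlap, motif and test routines were tested on simulated data. The comparison set of every test was the distal peaks unique to the same stage that overlap an H3K4me1 peak. Repeated sequence was measured by 16-base words, because the reference genome used holds no lower-case repeats, which had been the planned measure. Named were, per stage, the 8 members with the highest −log10 q, the 3 genes with most members, in alphabetical order where tied, and up to 4 genes per list whose strongest member had a −log10 q of at least 5. Sequences were those of the 2 strongest members of a stage, passing over windows in untranslated regions; some genes and sequences under these rules are not reported here. Depth is unknown, so no fold or −log10 q was compared across lists, and shares and distances of different stages are set side by side without a test.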

Additional observations from a re-analysis of the deposited data

Results flagged for a closer look

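The direction of 3 comparisons was not the same at every stage. The odds ratio of lying outside genes was 0.625 in eA, against 1.22 in aNPC and 1.30 in lA, and that of lying more than 50 kb from a coding start site was 0.725 in eA, against 1.31 and 1.28. The odds ratio of lying in a coding exon was 1.88 in eA, against 0.933 in aNPC and 0.709 in lA. The difference between the stages was not tested, because each stage has 1 merged list.

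Peaks of chromosomes X and Y, outside the comparisons above, met the other conditions of the rule in 180 cases in aNPC, 80 in eA and 180 in lA. They were 28.6%, 23.2% and 31.0% of the distal stage-unique peaks of these chromosomes, against 23.4%, 16.4% and 19.1% on chromosomes 1 to 19.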

How the results depend on the processing

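No paired analysis was possible because the authors merged the replicates before calling peaks, and for the same reason no replicate could be left out. In 9 alternatives no difference that passed the test changed its direction. The intergenic share and the share beyond 50 kb of a coding start site kept their direction and their call at each stage in the 8 alternatives run for them. Without peaks of a −log10 q under 5, the members numbered 3071, 841 and 2085 in aNPC, eA and lA, the noncoding start site share of eA had an odds ratio of 1.62, and the motifs called lower numbered 1, 0 and 1. With the other peaks widened by 1 kb, the members numbered 2354, 841 and 807, no motif was called lower (0 at each stage), and calls were lost for repeated sequence (odds ratios 1.24, 1.83 and 1.78), the noncoding start site share in eA (1.57), the exon share in lA (0.733) and the acetylated promoter share in eA (1.46), with fewer peaks tested. With overlap by the summit, the members numbered 3403 in eA and 8158 in lA. The CpG-rich share of aNPC became lower than that of the peaks with H3K4me1 with widened peaks (0.344), overlap by the summit (0.639) and windows of 500 bp (0.445). In lA the motifs called lower, without the E-box in the first 2 cases, numbered 1 with start sites of every biotype, 1 without repeated sequence and 5 with windows of 500 bp, and the cause was not tested. Depth per library is unknown, and the exon and acetylated promoter shares were added after the data had been seen.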
